A study of Mus musculus with 2 samples.

Results

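Imprinted genes are expressed mainly from the allele of a single parent, and several of them carry microRNA hairpins that are cut from their transcripts. Beside the large hairpin clusters of the Dlk1-Dio3 domain and of Sfmbt2, 5 hairpin genes lie at smaller imprinted loci: Mir335 at Mest, Mir296 and Mir298 near Gnas, and Mir483 and Mir675 at Igf2 and H19. These 5 were chosen by name from the 2202 microRNA genes of the deposited tables, all 5 were found there, and the rule of choice uses no count. The libraries are microRNA-seq of cortex tissue (left hemisphere) from 2 mice, both female, of the strain B6CASTF1/J and 36 days old. B6CASTF1/J is a first-generation hybrid of a B6 laboratory strain and the wild-derived CAST strain, and the labels name no treatment, transgene or second tissue. Both mice (mouse 1 and mouse 2, by replicate number) form 1 group under a single donor code, so the design implies no comparison of conditions, and the data give the level of each gene and how far the 2 libraries differed. The tables do not separate the alleles of the hybrid, so parental origin was not measured here.

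As background, a hairpin is processed into a duplex from which either arm (5p or 3p) can be loaded into Argonaute, and bases 2 to 8 of the loaded arm, the seed, pair with target mRNAs. Mest, Igf2 and Nespas, the antisense transcript of the Gnas locus, are known as paternally expressed, and H19 as maternally expressed. H19 and Igf2 are known for high expression in the embryo and placenta and a decline in most tissues after birth, and miR-675, cut from H19, is known as a growth-limiting microRNA of the placenta.

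The 10 mature arms are shown because they define what each gene could contribute, with the seed in capitals, 5′ to 3′, from RefSeq on GRCm38.p6, which matched all 5 genes.

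mmu-miR-335-5p: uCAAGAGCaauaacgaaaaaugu
mmu-miR-335-3p: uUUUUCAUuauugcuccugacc
mmu-miR-298-5p: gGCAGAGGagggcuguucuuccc
mmu-miR-298-3p: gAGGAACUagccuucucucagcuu
mmu-miR-296-5p: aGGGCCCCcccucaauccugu
mmu-miR-296-3p: gAGGGUUGgguggaggcucucc
mmu-miR-483-5p: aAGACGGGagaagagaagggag
mmu-miR-483-3p: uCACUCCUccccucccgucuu
mmu-miR-675-5p: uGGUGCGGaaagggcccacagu
mmu-miR-675-3p: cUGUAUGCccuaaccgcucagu

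The 10 seeds all differ, and for each of them 0 other genes had the same seed among the 1018 genes of the tables with a mature RefSeq entry under their symbol. The arms differ in composition. The miR-335-5p arm has 30.4% G and C and a run of 5 A, while miR-296-5p has 66.7% and a run of 7 C. In miR-483-5p 21 of 22 bases are purines, against 2 of 21 in miR-483-3p, its partner. None of the 5 hairpins has a run of 20 bases in common with another annotated hairpin on either strand. Reads that fit several places entered no gene count in these files, and no other annotated hairpin gives such a match for these 5 at that length. The rest of the genome was not searched.

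The order of levels was Mir335, Mir298, Mir296, Mir483 and Mir675, in each mouse separately as in the mean, and 4 of the 5 genes were detected, which means 10 CPM or more in both mice. CPM scales the sense-strand counts of a gene to a library of 1000000 sense counts. A value after ± is the SD, with n = 2 mice throughout. Of all 2202 genes, 304 (13.8%) were detected. Depth was 1930234 sense counts in mouse 1 and 1863876 in mouse 2. A read spans a mature arm and not the hairpin, so levels were not divided by length. The hairpins are 73 to 98 bases long, and the order of the means per base was the same. The 2 arms of a hairpin are counted together. Ligation and amplification can differ between sequences, so an order of levels in counts need not be an order in molecules. Some genes named below as neighbours in level are numbered copies, such as Mir24-2 and Mir7-2. Reads shared between copies entered no gene count, so such counts can understate their level.

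Mir335 (ENSMUSG00000065501.1, chr6:30741299-30741396, plus strand, mm10) lies in an intron of 7 of the 11 annotated transcripts of Mest, a gene named for its expression in mesoderm. It had 3896 counts in mouse 1 (95% exact Poisson interval 3775 to 4020) and 11221 in mouse 2 (11014 to 11431). These are 2018 and 6020 CPM, or 4019 ± 2830 CPM, so that mouse 2 stood well above mouse 1. Mir335 was number 45 of the 722 genes with any count. Next to it in mean level were Mir138-1 (4386 ± 1065 CPM) and Mir221 (4252 ± 1811 CPM) above, and Mir361 (3880 ± 9.52 CPM) and Mir342 (3779 ± 1337 CPM) below. Each of these 4 lay within the SD of Mir335, and Mir361, nearly equal in both mice, shows that the spread of Mir335 was not common to all genes of that level.

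The hairpins of Mir298 and Mir296 are shown with their arms in capitals because the pair lies on 1 strand with 378 bases between them and yet differed in opposite directions. Both are on the minus strand of chromosome 2.

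Mir298 hairpin, chr2:174267504-174267585: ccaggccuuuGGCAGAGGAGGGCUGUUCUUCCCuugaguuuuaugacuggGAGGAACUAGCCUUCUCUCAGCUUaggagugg
Mir296 hairpin, chr2:174267047-174267125: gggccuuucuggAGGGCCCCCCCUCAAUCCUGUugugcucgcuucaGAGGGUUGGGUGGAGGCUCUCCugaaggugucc

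No gene annotated on their strand held either hairpin. The antisense transcript Nespas ends 13651 bases upstream of Mir298 on the same strand. Gnas, which encodes the stimulatory G protein alpha subunit, starts 16734 bases away from Mir298 on the plus strand. Within 50 kb, 1 other annotated microRNA gene, Gm27591, lies on the plus strand and had 0 counts in both mice.

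Mir298 (ENSMUSG00000065410.1) had 1811 counts in mouse 1 (1729 to 1896) and 5534 in mouse 2 (5389 to 5682). Its level was 938 and 2969 CPM, or 1954 ± 1436 CPM, number 70 of 722, again high in mouse 2. Its neighbours in level were Mir219a-2 (1961 ± 771 CPM), Mir181d (1955 ± 494 CPM), Mir409 (1948 ± 336 CPM) and Mir107 (1893 ± 1250 CPM). All 4 lay within its SD, and as background miR-298 is among the microRNAs reported to act on the mRNA of the beta-secretase Bace1.

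Mir296 (ENSMUSG00000065521.1) had 1489 counts in mouse 1 (1414 to 1567) and 622 in mouse 2 (574 to 673). Its level was 771 and 334 CPM, or 553 ± 309 CPM, number 128 of 722. Here mouse 1 was the higher of the pair. Mir296 is known from endothelial cells, where miR-296 acts on growth factor receptor turnover. Mir153 (577 ± 207 CPM), Mirlet7c-1 (573 ± 385 CPM), Mir92-1 (547 ± 118 CPM) and Mir501 (543 ± 146 CPM) were its neighbours, all within its SD.

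Mir483 (ENSMUSG00000070140.1, chr7:142654924-142654996, minus strand) lies in an intron of 7 of the 9 annotated transcripts of Igf2, the gene of the growth factor IGF-II, and of a single transcript of the overlapping gene Gm49394. It had 175 counts in mouse 1 (150.0 to 203) and 100 in mouse 2 (81.4 to 122). At 90.7 and 53.7 CPM, or 72.2 ± 26.2 CPM, it was number 224 of 722 and the lowest of the 4 that were detected. Beside it stood Mir3059 (72.6 ± 10.4 CPM), Mir24-2 (72.2 ± 1.04 CPM), Mir7047 (71.9 ± 22.1 CPM) and Mir7-2 (68.6 ± 15.1 CPM), all within its SD. In adult brain Igf2 is known from the choroid plexus and the meninges. Of 7 microRNAs listed as markers of choroid plexus and epithelium, 5 were detected, at a summed 772 CPM in mouse 1 and 723 CPM in mouse 2, while Mir141 had 0 and 2 counts. Most of that sum was Mir204 (489 and 495 CPM). Mir200b stood at 129.0 and 35.9 CPM (log2 ratio −1.89), lower in mouse 2 as Mir483 was. It was the 1 gene of this list past the exact binomial test with at least 2-fold. Mir200a was also lower in mouse 2 (21.8 and 13.4 CPM). Mir429 (99.0 and 135 CPM) and Mir200c (5.70 and 11.8 CPM) were higher there, and Mir449a stood at 28.0 and 30.0 CPM. The median log2 ratio of the 5 tested genes of this list was −0.03. In bulk tissue, fewer cells of a type and less RNA per cell cannot be told apart, and the part of these cells in the Mir483 count was not tested.

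Mir675 (ENSMUSG00000076275.1, chr7:142577064-142577147, minus strand) overlaps an exon in 3 of the 7 annotated transcripts of the non-coding RNA H19 and an intron in 1. It had 0 counts in both mice, on the sense and on the opposite strand. A count of 0 allows up to 3 counts (a one-sided 95% limit, unlike the two-sided intervals of the other genes), a level of 1.55 CPM for mouse 1 and of 1.61 CPM for mouse 2. Against that floor, taken per library and without the counting error of Mir483 itself, Mir483, which lies 77776 bases away on the same strand, was at least 58.3-fold higher in mouse 1 and at least 33.3-fold higher in mouse 2. Counts of 0 were common, since 1480 of the 2202 genes had none in either mouse, and so had 495 of the 1174 genes with a Mir symbol.

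**Figure D1:**
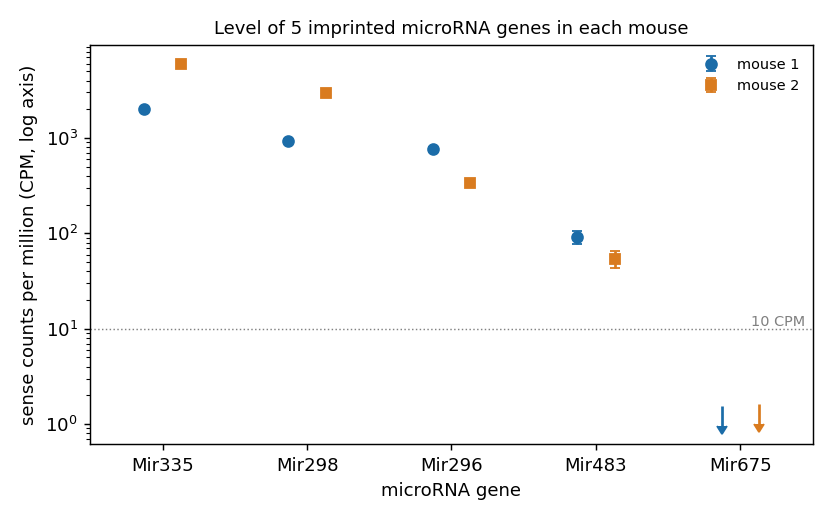
Sense CPM on a log axis for the 5 genes in mouse 1 (circles) and mouse 2 (squares). Bars are 95% exact Poisson intervals of the counts, arrows start at the floor of 3 counts (1.55 and 1.61 CPM), and the dotted line marks 10 CPM. Mir335 and Mir298 were higher in mouse 2 and Mir296 and Mir483 in mouse 1.

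**Figure D2:**
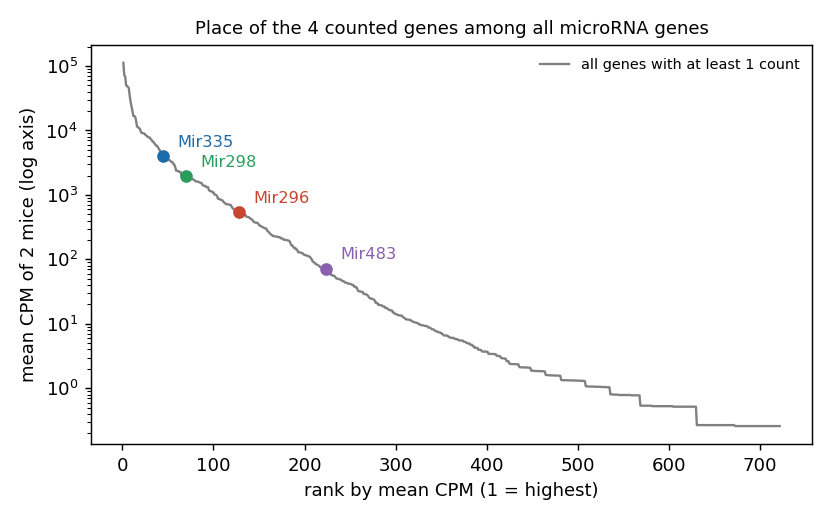
Mean CPM of the 2 mice on a log axis against rank, for the 722 genes with at least 1 count (line) and the 4 counted genes of the imprinted loci (points). Mir335 stood at rank 45, Mir298 at 70, Mir296 at 128 and Mir483 at 224.

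Together the 5 genes held 0.382% of sense counts in mouse 1 (95% exact binomial interval 0.373% to 0.391%) and 0.938% in mouse 2 (0.924% to 0.952%), or 0.660% ± 0.393. Most of this was Mir335, with 52.9% of the 5 genes' counts in mouse 1 and 64.2% in mouse 2. Mir298 made up 24.6% and 31.7%. Mir296 made up 20.2% in mouse 1 but 3.56% in mouse 2, and so changed its share most.

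Mir335 and Mir298, at different loci, kept nearly the same ratio to each other in both mice, while Mir298 and Mir296 did not. A steady ratio is not particular to that pair, since any 2 genes that differ alike between the mice keep theirs. Mir29c, for example, had a log2 ratio of mouse 2 over mouse 1 of 1.58. That is nearer to Mir335 (1.53) than Mir298 was (1.61). Mir335 had 2.15 counts for each count of Mir298 in mouse 1 and 2.03 in mouse 2, which are log2 ratios of 1.11 (95% counting interval 1.02 to 1.19) and 1.02 (0.97 to 1.07). Within a library Mir335 was therefore above Mir298 in both mice, by 1.06 ± 0.06 on the log2 scale. Across mice their CPM ranges overlapped, since Mir298 in mouse 2 lay above Mir335 in mouse 1. Mir298 had 1.22 counts for each count of Mir296 in mouse 1 and 8.90 in mouse 2, log2 ratios of 0.28 (0.18 to 0.38) and 3.15 (3.03 to 3.28), or 1.72 ± 2.03, so the mean log2 ratio is smaller than its SD. Their CPM ranges did not overlap: the lower value of Mir298 (938 CPM) lay just above the higher value of Mir296 (771 CPM), and both came from mouse 1. Mir296 had 8.51 counts for each count of Mir483 in mouse 1 and 6.22 in mouse 2, and those ranges did not overlap either.

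Between the libraries, the counts of Mir335, Mir298 and Mir296 differed by at least 2-fold and by more than counting error. The test was a two-sided exact binomial test of the 2 counts of a gene, with library sizes scaled by TMM (a trimmed mean that corrects for composition) and Benjamini-Hochberg adjustment across all 324 genes whose mean reached 10 CPM. That test compares 2 libraries for counting error alone. It does not compare conditions, and with 1 library for each mouse an animal cannot be told apart from its library preparation. With adjusted p under 0.05 and at least 2-fold, 3 of the 4 members tested passed, against 63 of all 324 genes (19.4%). Of these 3, Mir335 and Mir298 were higher in mouse 2, as were 14.2% of all tested genes, and Mir296 was higher in mouse 1, as were 5.25%. Mir675, without counts, was not among the tested genes.

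Mir298 was 3.06-fold higher in mouse 2, with a log2 ratio of mouse 2 over mouse 1 of 1.61 (95% counting interval 1.54 to 1.69). Mir335 was 2.88-fold higher in mouse 2, at 1.53 (1.48 to 1.58). For both the exact p was too small to be held as a number. Mir296 was 2.39-fold higher in mouse 1, with a log2 ratio of −1.26 (−1.39 to −1.12) and an adjusted p of 1.2e-80 by the exact binomial test. Mir483 was 1.75-fold higher in mouse 1, at −0.81 (−1.17 to −0.44), with an adjusted p of 1.4e-05 by the exact binomial test, and so stayed under 2-fold. An adjusted p under 0.05 alone was reached by 74.7% of all tested genes, so passing counting error alone was usual in these libraries. By absolute log2 ratio Mir298 was number 25, Mir335 number 31, Mir296 number 46 and Mir483 number 99 of 324. The median of the 4 log2 ratios was 0.36 against −0.004 over all 324 genes, a value between 2 positive and 2 negative members.

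When the spread between the 2 mice over all tested genes was taken as the error, none of the 4 members passed. The common biological coefficient of variation was 0.399, and with it the exact test of edgeR gave adjusted p = 0.856 for Mir298 and Mir335 and 1.00 for Mir296 and Mir483. Unadjusted, that edgeR exact test gave p = 0.058 for Mir298, 0.072 for Mir335, 0.14 for Mir296 and 0.35 for Mir483, so 0 of 4 lay under 0.05. Of all 324 genes, 2 (0.617%) passed after adjustment and 17 before it. This dispersion comes from the same pair of libraries that the test compares.

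**Figure D3:**
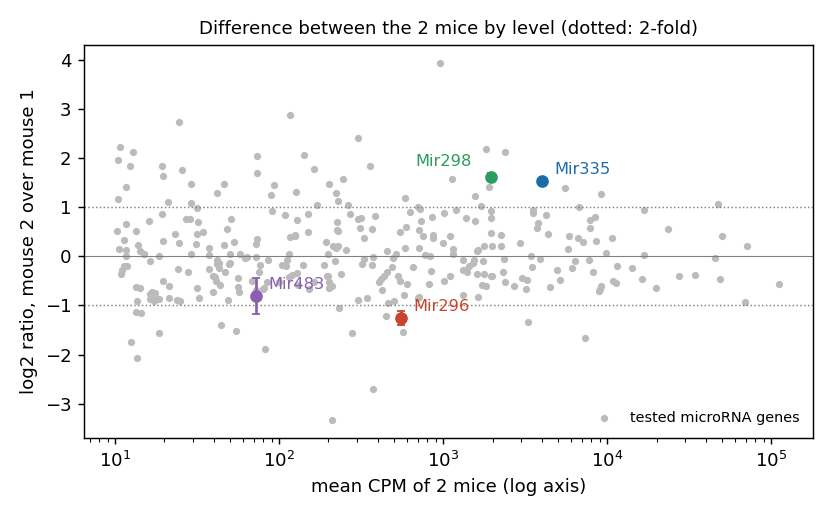
Log2 ratio of mouse 2 over mouse 1 (TMM library sizes) against mean CPM on a log axis for the 324 tested genes (grey) and the 4 tested members (coloured, with 95% counting intervals). Dotted lines mark 2-fold. Mir298 (1.61) and Mir335 (1.53) lie above the upper line, Mir296 (−1.26) below the lower and Mir483 (−0.81) between them.

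The contrast between Mir296 and Mir298 was wider than in any other pair of tested hairpins so close together. This comparison was chosen after the values were seen and is a description. There were 78 pairs of tested genes on 1 strand with under 1 kb between them, drawn from 99 genes, so that some pairs share a gene. The absolute difference between the log2 ratios of a pair had a median of 0.70. For Mir296 and Mir298 it was 2.87, the highest of the 78, followed by 2.24 for Mir29b-2 and Mir29c, which lie 426 bases apart. Some of the other pairs hold numbered copies, such as Mir29b-2. Reads shared between copies entered no gene count, so the ratios of such genes rest on the remaining reads. Opposite signs were common, in 31 of the 78 pairs. Only in Mir296 and Mir298 did both genes pass the exact test and 2-fold in opposite directions.

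**Figure D4:**
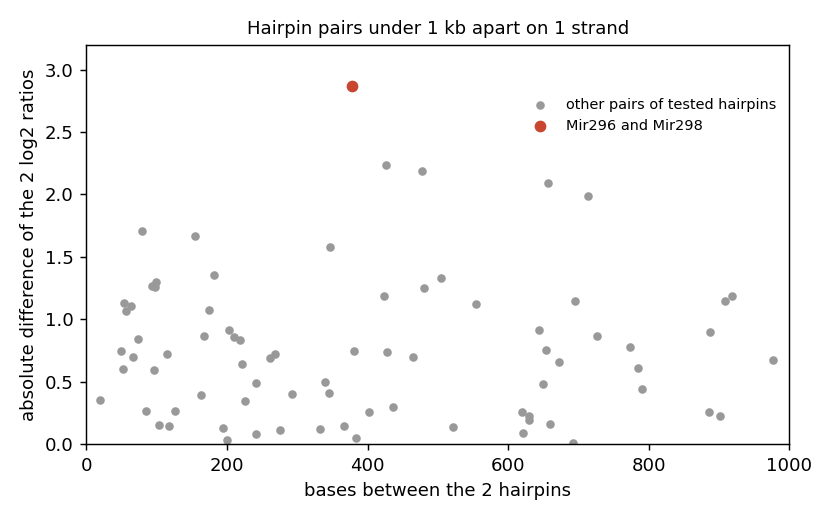
Absolute difference between the log2 ratios (mouse 2 over mouse 1) of the 2 hairpins of a pair against the bases between them, for 78 pairs of tested genes on 1 strand under 1 kb apart. Mir296 and Mir298, 378 bases apart, stand at 2.87, and the next pair at 2.24.

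GC content of the hairpins was set beside the differences. It was 42.9% in Mir335, 53.7% in Mir298, 58.9% in Mir483 and 63.3% in Mir296. Thus both genes higher in mouse 2 had less G and C in the hairpin than both genes higher in mouse 1. In the mature arms, which the reads span, this split was not clean. The miR-298-5p arm has 65.2% G and C, above miR-483-3p (61.9%) and miR-483-5p (54.5%). It lies below miR-296-5p (66.7%) and miR-296-3p (68.2%). The miR-298-3p arm and both arms of Mir335 lie below every arm of Mir296 and Mir483. Arm GC was not tested against the log2 ratios. Across the 324 tested genes the log2 ratio fell by 0.23 for each 10 percentage points of hairpin GC. Pearson's r was −0.24 across genes, which share the 2 libraries and are not replicates. The 81 tested genes with the least GC (28.4% to 44.4%), among them Mir335, had a median log2 ratio of 0.50. Mir298 lies among the 81 genes from 50.9% to 57.3%, whose median was −0.01, and 62.7% of tested genes have less GC than it. The 81 with the most (57.4% to 79.1%), among them Mir296 and Mir483, had a median of −0.34. With the linear trend removed, Mir335 stood at 1.34, Mir298 at 1.67, Mir296 at −0.98 and Mir483 at −0.63, so Mir296 fell just under 2-fold while its adjusted p by the exact binomial test was 1.8e-48. The difference between Mir298 and Mir296 was then 2.65, number 1 of the 78 pairs. The line was fitted to hairpin GC in the same 2 libraries, members included. The part of GC content in these differences was not tested. Predicted folding energies of this pair were close, at −42.7 kcal/mol for Mir298 and −43.2 kcal/mol for Mir296, against −44.3 for Mir335, −33.8 for Mir483 and −56 for Mir675.

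**Figure D5:**
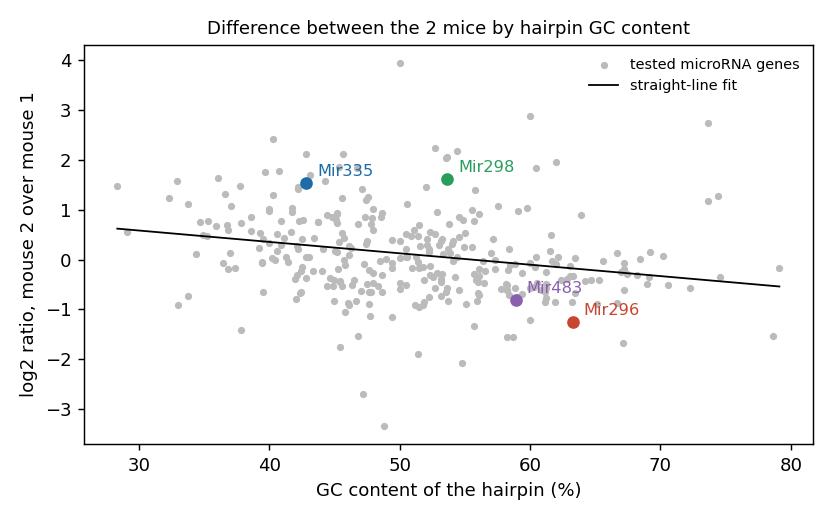
Log2 ratio of mouse 2 over mouse 1 against the GC content of the hairpin for 324 tested genes (grey), with a straight-line fit (black) and the 4 tested members (coloured). Mir335 and Mir298 lie above the line and Mir296 and Mir483 below it.

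Of 3 listed blood markers, all detected, 2 passed the exact binomial test and 2-fold. Mir451a stood at 649 and 103 CPM and Mir144 at 63.2 and 24.7 CPM, lower in mouse 2 as Mir296 and Mir483 were. Mir486 stood at 30.6 and 25.2 CPM, with a log2 ratio of −0.33 and an adjusted p of 0.334 by the exact binomial test. The sum of the 3 was 742 CPM for mouse 1 and 153 CPM for mouse 2, most of it Mir451a. The 2 listed markers of liver and pancreas were also detected, and 0 of them passed the exact binomial test with 2-fold. Mir375 stood at 251 and 170 CPM and Mir122 at 45.6 and 40.2 CPM, both lower in mouse 2. The part of blood, or of the tissues of these 2 markers, in the differences of Mir296 and Mir483 was not tested. The neuron list, which checks the labelled tissue, had 4 of 7 genes detected at a summed 181899 and 177871 CPM. That near-equal sum covers opposite differences. Mir132 stood at 29894 and 64860 CPM (log2 ratio 1.07), higher in mouse 2 as Mir335 and Mir298 were, and Mir139 at 132003 and 92535 CPM. Mir132 was the 1 gene of the list that passed the exact test and 2-fold. Mir128-1 stood at 16282 and 17178 CPM (log2 ratio 0.03) and Mir128-2 at 3717 and 3294 CPM (log2 ratio −0.22). The median log2 ratio of the 4 tested genes of this list was −0.10. The part of neurons in the differences of Mir335 and Mir298 was not tested. The other 3 genes of the neuron list, the Mir124a copies, had 1 to 4 counts in each library. Reads that fit several copies entered no gene count, so these counts do not give the level of miR-124.

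Against the large imprinted clusters, Mir335 and Mir298 stood high. In the span from Meg3 to Mirg of the Dlk1-Dio3 domain (chromosome 12, 109541001 to 109749460), 48 of 66 genes were detected, with a median of 242 CPM. Of these 66 genes 8 lay above Mir335, 13 above Mir298, 26 above Mir296 and 41 above Mir483 in mean CPM. Inside Sfmbt2 (chromosome 2, 10370510 to 10595253), 7 of 119 genes were detected and the median was 0 CPM. None of those 119 lay above Mir296, and 4 lay above Mir483. Many Sfmbt2 hairpins are near copies of each other, whose shared reads entered no gene count. In the difference between mice, 6 of the 48 tested Dlk1-Dio3 genes passed the exact test and 2-fold higher in mouse 2 and 1 in mouse 1, with a median log2 ratio of 0.19, where 14.2% and 5.25% of all tested genes did so.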

How the data were processed

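MicroRNA-seq libraries of the left cerebral cortex of 2 mice were analysed as 1 group. The authors deposited whole-number read counts per gene in 3 unnamed columns, on the mm10 assembly and GENCODE M21, per the submitters' README notes. The columns were read from their values as unstranded, sense and opposite-strand counts, and the sense column was used. An aligner, a counter or a trimming step is not given in the sources used here. No molecular identifiers are named, so intervals and floors cover counting error only. Reads that name no gene stayed out of library sizes: 32.1% and 27.3% of all reads were unmapped, and 34.6% and 37.2% mapped to several places. Reads that differ from mm10 through CAST alleles may have been lost, which the tables cannot test.

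Symbols, coordinates and host genes were taken from M21, which holds all 2202 gene identifiers. CPM, exact Poisson intervals, exact binomial tests and Clopper-Pearson intervals were computed with SciPy 1.17.1. TMM factors (0.983 and 1.02) and the exact test with a common dispersion from an intercept-only design came from edgeR 4.0.16, and alternative size factors from DESeq2 1.42.0. Folding energies came from RNAfold 2.7.2. The binomial test was run on simulated counts that held counting error alone. Variation between animals was not simulated, so that run does not show how the test behaves under it. The members, lists and tests were chosen with earlier results of these data known. Named genes were the 5 members, the 2 genes with Mir symbols next above and below each in mean CPM, microRNA genes within 50 kb and genes sharing a seed or a run of 20 bases. The other genes named come from lists or, for Mir29b-2 and Mir29c, were named after their values were seen. The labels number the animals separately under a single donor code. Exact binomial p-values measure counting error only, and the edgeR p-values use the spread between these 2 samples. Alternatives changed the denominator, the count column, the scaling, the filter, the threshold and the mouse left out.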

Additional observations from a re-analysis of the deposited data

How the results depend on the processing

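No paired analysis was possible because the study has a single group. The share of counts held by the 5 genes was 0.660% and became 0.192% with all reads of the library as the denominator, which lowers every level by construction. With it Mir335 stood at 1172, Mir296 at 155 and Mir483 at 20.4 CPM. With 1 mouse left out the share ran from 0.382% to 0.938%, and the log2 ratio of Mir298 to Mir296 from 0.28 to 3.15. The number of members past the exact test and 2-fold was 3 with total counts, DESeq2 size factors, the unstranded column or no filter, as with TMM, and 2 with the GC trend removed, where Mir296 stood at −0.98. With the common dispersion of edgeR the number was 0, and over all 324 genes it fell from 63 to 2. In those settings no log2 ratio of the 4 tested genes changed sign. The 4 detected genes stayed at 4 with a minimum of 1 or 5 CPM and were 3 with 100 CPM, without Mir483. For Mir675 the depth limits the statement to a level under 1.55 and 1.61 CPM, and 2 libraries give no estimate of the spread for a single gene beyond 1 degree of freedom.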

Other observations

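Mir184 and the Mir344 group were listed as other imprinted or candidate imprinted microRNA genes outside the large clusters. They were read at lower levels than Mir335, Mir298 and Mir296, and no further such genes were looked up. Mir184, known from the eye and from neural stem cells, had 367 counts in mouse 1 and 256 in mouse 2 (190 and 137 CPM). Of 13 genes of the Mir344 group on chromosome 7, near the region of the Prader-Willi genes, 1 was detected at 10 CPM in both mice, Mir344b, with 121 and 65 counts (62.7 and 34.9 CPM). Mir344g had 8 and 31 counts, Mir344f 19 and 11, and 7 of the 13 had no counts in either mouse. Several genes of this group are numbered copies, such as Mir344h-1 and Mir344h-2. Reads shared between copies entered no gene count, so these counts can understate the level of the group.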
